A study of Mus musculus with 6 samples.

Results

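The 42 collagen genes measured on these arrays are described here, out of 18193 mouse genes with a value. A gene was taken as a collagen where its symbol had the form Col, number, a, number, as in Col1a1, and where at least 1 probe set (a group of short array probes for a transcript) carried that symbol and no other. The 42 genes had 82 such probe sets, and each gene was represented by the probe set with the highest mean over all 6 arrays, so no difference between the groups entered the choice. They were divided into 11 fibrillar collagens, 8 basement membrane collagens and 23 others. The others comprised 9 fibril-associated collagens with interrupted triple helices (FACITs), 5 beaded filament collagens of type VI, 4 transmembrane collagens, 3 short-chain network collagens, the anchoring fibril collagen Col7a1, and Col26a1, which was left ungrouped.

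Whole embryos of the mouse, taken at embryonic day 8.5, were compared between 2 genotypes with 3 arrays of total RNA each. The reference group was Fz2+/+; Fz7-/- and is called the single knockout, and the other group was Fz2-/-; Fz7-/- and is called the double knockout. Both groups therefore lacked Fz7, a receptor of the Frizzled family that binds Wnt ligands, and they differed in Fz2, a second receptor of that family. Embryos of both groups were of mixed gender on a mixed C57BL6/129 background. No wild-type embryos were analysed here, and the labels do not say whether an array held 1 embryo or a pool, which litters were used, or how many of the replicates came from separate litters. The p-values then measure only the spread between these arrays. The comparison asks which genes depend on Fz2 where Fz7 is already missing.

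Collagens are proteins of the extracellular matrix built from 3 chains wound into a triple helix. Fibrillar collagens are secreted as procollagens, trimmed at their ends and packed into the tensile fibrils of mesenchyme, cartilage and later bone, whereas type IV collagens join into the flat networks of the basement membranes that underlie epithelia and vessels. The remaining families decorate fibrils, form beaded filaments or short-chain lattices, or stay anchored in the plasma membrane. Around the stage studied here, basement membranes already line the neural tube, somites and vessels, while the loose mesenchyme and the notochord sheath are beginning to lay down fibrillar matrix.

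The 150 bases before the annotated start of Col3a1, Col11a1 and Col1a2 are shown because these fibrillar genes had the lowest double minus single differences of all 42 members. Sequences are from RefSeq, build GRCm38.p6, 5′ to 3′ on the plus strand, which is the strand of each gene. Capitals mark CCAAT or its reverse complement ATTGG in Col11a1 and Col1a2, and TATAAA in Col3a1.
Col3a1, chr1:45311388-45311537: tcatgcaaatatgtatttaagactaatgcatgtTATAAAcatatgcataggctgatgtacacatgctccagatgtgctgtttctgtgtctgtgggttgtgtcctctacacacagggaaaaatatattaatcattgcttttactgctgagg
Col11a1, chr3:114030390-114030539: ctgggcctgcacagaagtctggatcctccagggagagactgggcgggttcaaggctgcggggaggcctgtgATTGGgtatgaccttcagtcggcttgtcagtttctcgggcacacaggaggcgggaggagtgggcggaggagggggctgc
Col1a2, chr6:4505468-4505617: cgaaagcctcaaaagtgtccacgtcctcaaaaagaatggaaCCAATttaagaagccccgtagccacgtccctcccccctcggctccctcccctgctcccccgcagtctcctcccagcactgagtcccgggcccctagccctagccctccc
The TATAAA of Col3a1 begins 117 bases before the start, the ATTGG of Col11a1 79 bases before it, and the CCAAT of Col1a2 109 bases before it. The RefSeq promoter table held 36 windows for 33 of the 42 members. Searched on both strands of the 250 bases before the start, CCAAT was found in 13 of the 36 collagen windows (36.1%) and in 33.8% of all 32851 promoters. TATAAA was found in 5 of 36 (13.9%), against 12.4% of all promoters. GGGCGG was found in 21 of 36 (58.3%), with 6 of 8 fibrillar and 4 of 8 basement membrane windows, against 32.7% of all promoters. Such a match is a description of the letters and not of a binding site.

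The targeted gene agreed in direction with the labels. Fzd2 read 9.86, 9.99 and 10.01 on the log2 scale in single knockout replicates 1, 2 and 3, and 7.30, 7.69 and 7.63 in double knockout replicates 1, 2 and 3. It fell by 2.42 (SE 0.11), to 18.7% of the single knockout level, with an adjusted p of 0.00567 in limma after Benjamini-Hochberg adjustment over 18193 genes. Fzd7, missing in both groups, read 4.92 ± 0.01 and 4.89 ± 0.10 (SD, n = 3 each), and the labels do not say whether its probe set lies in the deleted part. Double knockout replicate 1 stood apart: its correlation with the other arrays over all genes was 0.986 to 0.990, against 0.997 to 0.998 among the other 5. In that array 7 of 7 visceral endoderm markers and 4 of 4 epiblast markers lay above all single knockout arrays. So did 3 of 4 trophoblast and placenta markers, whose summed level was 9.05 against 5.88 to 6.25 in the single knockout. Decidua markers were mixed, with 2 of 5 above and 2 of 5 below all single knockout arrays. Their summed level was 12.04, against 11.28 to 11.52. There too, 6 of 6 endothelial, 6 of 6 cardiomyocyte, 5 of 5 neural and 4 of 4 primitive erythroid markers lay below all single knockout arrays. The primitive erythroid markers were also low in double knockout replicate 3, where 4 of 4 lay below all single knockout arrays and their summed level was 11.37, against 14.50 to 15.03 in the single knockout and 15.06 in double knockout replicate 2. Epiblast markers also summed above the single knockout in double knockout replicates 2 and 3, at 7.91 and 8.19 against 7.36 to 7.61. Since double knockout replicate 1 stood apart, the counts, medians and leading genes below are also given without it.

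None of the 42 collagens passed the test at an adjusted p of 0.05 in limma, where Fzd2 alone among all genes did, a background of 0.00550%. The lowest adjusted p of a collagen was 0.872, and 0.701 without double knockout replicate 1. At an unadjusted p of 0.05, 3 of 42 were counted, namely Col3a1, Col14a1 and Col6a3, all lower in the double knockout, against 4.96% of all genes. Without double knockout replicate 1, 2 of 42 were counted, Col3a1 and Col14a1, against 6.67% of all genes. Both shares lie near the background. The differences leaned to lower values: 32 of 42 collagens (76.2%) had a double minus single difference below 0, against 53.8% of all genes. Without double knockout replicate 1 the lower members were 28 of 42 (66.7%), against 53.3% of all genes.

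With all arrays, the fibrillar collagens had the lowest median of the 3 classes, and without double knockout replicate 1 their median was close to that of the basement membrane class. The fibrillar median difference was -0.32, with 10 of 11 lower, and it came to -0.076 with 9 of 11 lower when double knockout replicate 1 was left out. The basement membrane collagens had a median of -0.11 with 7 of 8 lower, and -0.074 with 7 of 8 lower without that array. The others had a median of -0.016 with 15 of 23 lower, and -0.012 with 12 of 23 lower without it. Over all genes the median difference was -0.0093. Of the 42 differences, 21 were smaller than 0.1 in size, made up of 2 fibrillar, 4 basement membrane and 15 other members. Col3a1, Col11a1 and Col1a2 alone differed by more than 0.5. Without double knockout replicate 1 only Col3a1 did, at -0.87, with Col11a1 at -0.375 and Col1a2 at -0.13. The differences between the classes were not tested.

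**Figure D1:**
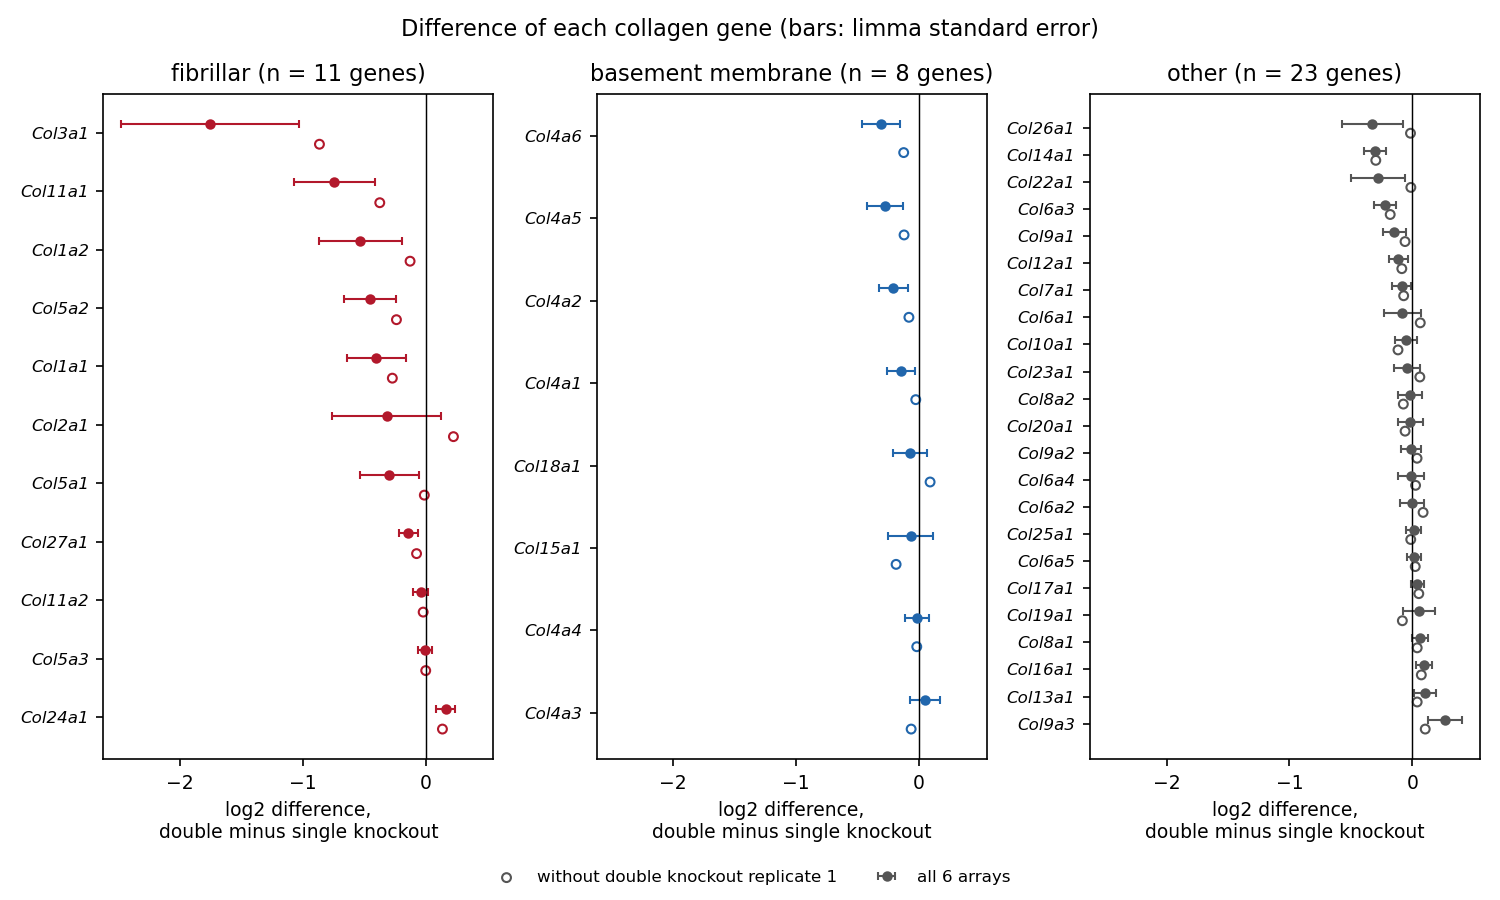
Double minus single knockout difference (log2, x axis) of each of the 42 collagen genes by class, filled circles with limma standard errors over 3 arrays a group, and open circles without double knockout replicate 1. Col3a1 lies farthest to the left at -1.76, and its open circle stands at -0.87.

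Read array by array, the shift was largest in double knockout replicate 1. The median fibrillar deviation from the single knockout mean was -0.038, 0.16 and 0.013 in the 3 single knockout arrays. In the double knockout it was -0.87, -0.048 and -0.10 in replicates 1, 2 and 3. For basement membrane collagens it was -0.39, -0.075 and -0.073 in the double knockout arrays and between -0.032 and 0.060 in the single knockout arrays. For the others it was -0.086, 0.0092 and -0.050, against -0.029 to 0.037. Replicates 2 and 3 of the double knockout thus lay below 0 for the fibrillar and basement membrane classes, by less than the distance between the lowest and the highest single knockout array. In double knockout replicate 1, 25 of 42 members lay below all 3 single knockout arrays, where 35.7% of all genes did. In replicate 2 the members below were 11 of 42, against 31.0% of all genes, and in replicate 3 they were 14 of 42, against 23.6%. In double knockout replicate 1, 4 of 42 members differed from the average of the remaining 5 arrays by over 1 log2 unit. Of all genes, 2.63% did so. All 4 were fibrillar and lower, namely Col3a1, Col2a1, Col11a1 and Col1a2.

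**Figure D2:**
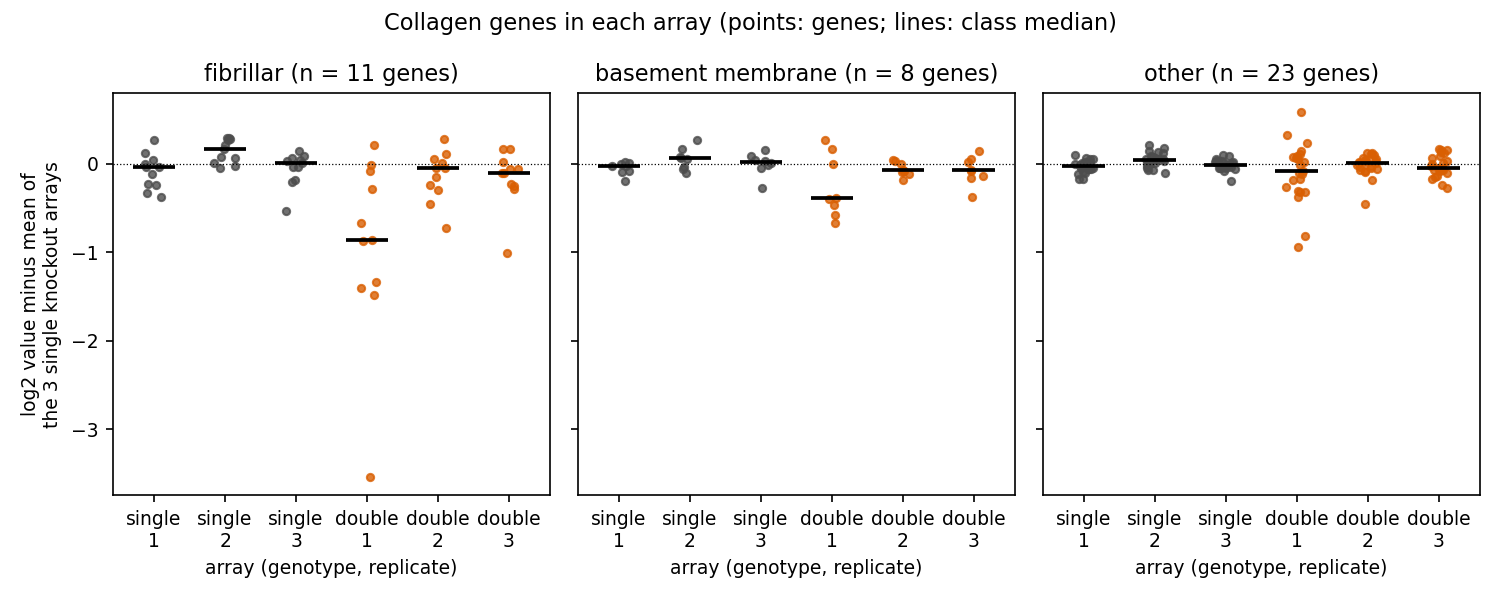
Median deviation from the single knockout mean (log2, y axis) of the fibrillar, basement membrane and other collagens in each of the 6 arrays. Double knockout replicate 1 reads -0.87 for the fibrillar and -0.39 for the basement membrane class, and the other 2 double knockout arrays lie between -0.10 and 0.0092 in every class.

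Marker lists of several tissues that make collagen also differed in double knockout replicate 1. Summed over their 7 genes, sclerotome and somite markers gave log2 levels of 11.21 to 11.47 in the single knockout and 11.02, 11.22 and 11.22 in the double knockout. Such a sum follows mainly its brightest genes. All 7 of these markers had a difference below 0, with a median of -0.14, or -0.10 without double knockout replicate 1. Named after their values were seen, Meox2, Pax1 and Meox1 differed by -1.26, -0.67 and -0.58, or -0.59, -0.40 and -0.45 without that array. The remaining members differed by -0.14 to -0.0097. In double knockout replicates 1, 2 and 3, respectively, 4, 3 and 6 of the 7 lay below all single knockout arrays. Of all genes, 35.7%, 31.0% and 23.6% did. Mesenchyme markers summed to 12.05 to 12.16 in the single knockout and 11.97, 12.13 and 12.15 in the double knockout, with 4 of 5 below all single knockout arrays in replicate 1. Parietal endoderm markers, of cells that secrete much basement membrane, summed to 9.60 to 9.72 in the single knockout and 9.92, 9.71 and 9.77 in the double knockout. None of these lists had a summed level at the lower end of the scale in any array, and their part in the collagen values was not tested. Single markers did read low. In double knockout replicate 1, Meox2 read 4.45 against 6.60 to 7.37 in the single knockout, and Pax1 read 4.93 against 5.81 to 6.36. In whole embryos, fewer cells of a type and less RNA per cell cannot be told apart.

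Among the fibrillar collagens, Col3a1 differed most. It encodes the chain of type III collagen, which forms fibrils of stretchable tissues such as vessel wall and skin. It read 10.34, 11.01 and 10.81 in the single knockout and 7.18, 9.99 and 9.71 in the double knockout. All 3 double knockout arrays lay below all 3 single knockout arrays, and replicate 1 lay far below the other 2. The double minus single difference was -1.76 (SE 0.72), 29.6% of the single knockout level, with an adjusted p of 0.872 in limma. Without double knockout replicate 1 it was -0.87 (SE 0.20), 54.9% of the single knockout level, with an adjusted p of 0.701 in limma. The exact two-sided permutation test over the 6 arrays gave p = 0.1, the smallest that 3 arrays against 3 allow. The second Col3a1 probe set had a difference of -1.71 and the same order of the groups, with 7.28, 8.17 and 7.93 in the single knockout and 4.45, 7.05 and 6.73 in the double knockout.

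The chains of type I collagen, the main fibril former of connective tissue, differed less. Col1a2 read 11.38, 11.59 and 11.18 in the single knockout and 10.05, 11.23 and 11.28 in the double knockout, a difference of -0.53 (SE 0.33). Only replicate 1 of the double knockout lay below the single knockout range, and without it the difference was -0.13 (SE 0.12). Col1a1 read 8.14, 8.15 and 7.34 in the single knockout and 7.21, 7.58 and 7.62 in the double knockout, a difference of -0.40 (SE 0.24), or -0.27 without double knockout replicate 1. Its second probe set had a difference of -0.17, or 0.012 without that array. Its groups overlapped because single knockout replicate 3 read as low as the double knockout arrays.

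Type V and type XI chains, which start fibrils and limit their width, were on the lower side too. Col5a2 read 9.60, 10.11 and 9.80 in the single knockout and 8.96, 9.59 and 9.60 in the double knockout, a difference of -0.45 (SE 0.21) and, without double knockout replicate 1, of -0.24 (SE 0.15). Its groups overlapped only between single knockout replicate 1 and double knockout replicate 3, both at 9.60. Col11a1 read 6.40, 7.01 and 6.77 in the single knockout and 5.24, 6.27 and 6.44 in the double knockout, a difference of -0.74 (SE 0.33), and its groups overlapped at 6.40 and 6.44. Without double knockout replicate 1 the Col11a1 difference was -0.375 (SE 0.17). Col5a1 read 9.05, 8.99 and 8.75 in the single knockout and 8.06, 8.88 and 8.95 in the double knockout. Its difference of -0.30 (SE 0.24) shrank to -0.013 without double knockout replicate 1. Col5a3 and Col11a2, whose signals were dim, differed by -0.007 and -0.042.

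Col2a1, the main collagen of cartilage and of the notochord sheath, changed sign with 1 array. It read 9.83, 10.22 and 10.12 in the single knockout and 8.65, 10.34 and 10.22 in the double knockout. Replicates 2 and 3 of the double knockout lay at or above the highest single knockout array, and replicate 1 lay below all others. Its difference was -0.32 (SE 0.44) with all arrays and 0.22 (SE 0.12) without double knockout replicate 1. Notochord and node markers summed to 10.44 to 10.74 in the single knockout and to 10.69, 10.63 and 10.46 in the double knockout. Col24a1 was the only fibrillar gene with a higher mean in the double knockout, by 0.16 (SE 0.08), at a dim signal between 3.73 and 4.06. For Col27a1 the value was -0.14 (SE 0.08), and -0.076 once that array was left out.

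**Figure D3:**
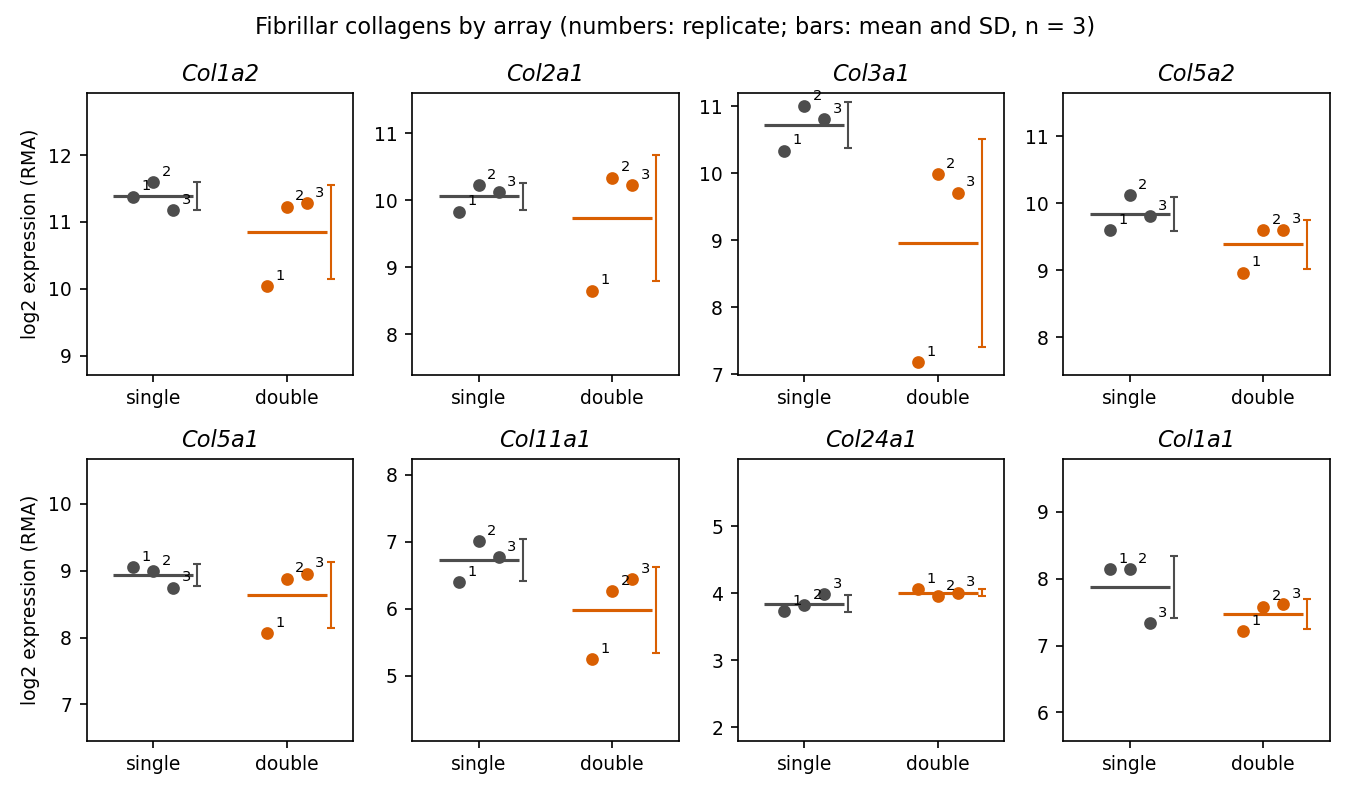
Log2 values (y axis) of 8 fibrillar collagens in each array, with replicate numbers on the dots and bars for the mean and SD of 3 arrays a group; every panel spans the same log2 range. Dot 1 of the double knockout is the lowest of its panel in Col3a1, Col1a2, Col2a1, Col5a1, Col5a2, Col11a1 and Col1a1, and in Col3a1 dots 2 and 3 also lie below the single knockout.

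The type IV collagens had small differences, of the same sign in the chains with a clear signal. Col4a1, 1 of the chains of the type IV network found in every basement membrane, read 11.78, 11.89 and 11.76 in the single knockout and 11.42, 11.74 and 11.82 in the double knockout. Its difference was -0.15 (SE 0.11), or -0.027 without double knockout replicate 1, and the groups overlapped. Col4a2, its partner in the same trimer, read 10.01, 10.15 and 10.09 against 9.62, 9.99 and 10.02, a difference of -0.21 (SE 0.12), or -0.083 without double knockout replicate 1. Here only double knockout replicate 3 reached into the single knockout range.

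The chains Col4a5 and Col4a6, which occur in a more restricted set of basement membranes, had the lowest differences of the class. Col4a6 read 7.73, 7.70 and 7.78 in the single knockout and 7.06, 7.62 and 7.60 in the double knockout. All double knockout arrays lay below all single knockout arrays. The difference was -0.31 (SE 0.15), and -0.13 (SE 0.06) without double knockout replicate 1. The second Col4a6 probe set had a difference of -0.19, and its groups overlapped. Col4a5 read 9.61, 9.65 and 9.86 in the single knockout and 9.12, 9.62 and 9.54 in the double knockout, a difference of -0.28 (SE 0.14), or -0.12 without double knockout replicate 1, and its groups overlapped. Among all 42 members, 3 had a double knockout wholly below the single knockout (Col3a1, Col4a6 and Col14a1), against 6.60% of all genes, and 1 wholly above (Col9a3), against 4.85%.

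Col18a1, a proteoglycan collagen of basement membranes and the source of endostatin, read 10.93, 11.01 and 10.94 in the single knockout and 10.56, 10.99 and 11.10 in the double knockout. Its difference was -0.072 (SE 0.14) with all arrays and 0.089 (SE 0.07) without double knockout replicate 1, so its sign rested on that array. Col15a1, Col4a3 and Col4a4 were dim, with means between 4.06 and 4.46, and differed by -0.070, 0.046 and -0.015, or by -0.19, -0.065 and -0.019 without double knockout replicate 1.

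Among the FACITs, which lie on the surface of fibrils, 6 of 9 were lower, with a median of -0.016 and a range of -0.30 to 0.27, and 6 of 9 with a median of -0.059 without double knockout replicate 1. Col14a1, which binds fibrils and regulates their growth, read 5.71, 5.78 and 5.67 in the single knockout and 5.41, 5.27 and 5.58 in the double knockout. All 3 double knockout arrays lay below the single knockout, and the lowest was replicate 2. The difference was -0.30 (SE 0.09), and without double knockout replicate 1 it was -0.30 (SE 0.10), with an adjusted p of 0.872 and 0.707 in limma. The 2 other Col14a1 probe sets, however, had differences of -0.09 and 0.04. Col9a3, a chain of type IX collagen of cartilage, read 6.06, 5.997 and 5.96 in the single knockout and 6.59, 6.06 and 6.16 in the double knockout. The groups were separated by less than the rounding of these values, and the difference of 0.27 (SE 0.14) was 0.10 without double knockout replicate 1. Its partner chains gave -0.15 (SE 0.09) for Col9a1 and -0.011 for Col9a2, or -0.060 and 0.038 without that array. Col12a1, Col16a1, Col19a1, Col20a1 and Col22a1 ranged from -0.28 to 0.097, with Col22a1 at -0.012 without double knockout replicate 1.

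The beaded filament collagens of type VI, which form microfibrils around cells, were lower in 4 of 5 members with a median of -0.011. Without double knockout replicate 1 the direction turned, with 1 of 5 lower and a median of 0.026. Col6a3 read 5.80, 5.95 and 6.01 in the single knockout and 5.61, 5.83 and 5.65 in the double knockout. Its difference was -0.22 (SE 0.09), or -0.18 without double knockout replicate 1, and double knockout replicate 2 overlapped the single knockout. Col6a2 differed by -0.0019 and Col6a1 by -0.082, and without that array by 0.087 and 0.064. Of the 4 transmembrane collagens, 1 was lower, with and without that array, although not the same gene. Col13a1, found at cell adhesions, differed by 0.10 (SE 0.09) and Col23a1 by -0.047 (SE 0.10), or 0.039 and 0.061 without that array. The short-chain network collagens Col8a1, Col8a2 and Col10a1 lay between -0.055 and 0.061. Col7a1, which anchors epithelia to the tissue beneath, differed by -0.086. Col26a1 read 8.18, 8.19 and 8.17 in the single knockout and 7.24, 8.23 and 8.10 in the double knockout, so that its difference of -0.32 (SE 0.25) became -0.015 without double knockout replicate 1.

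**Figure D4:**
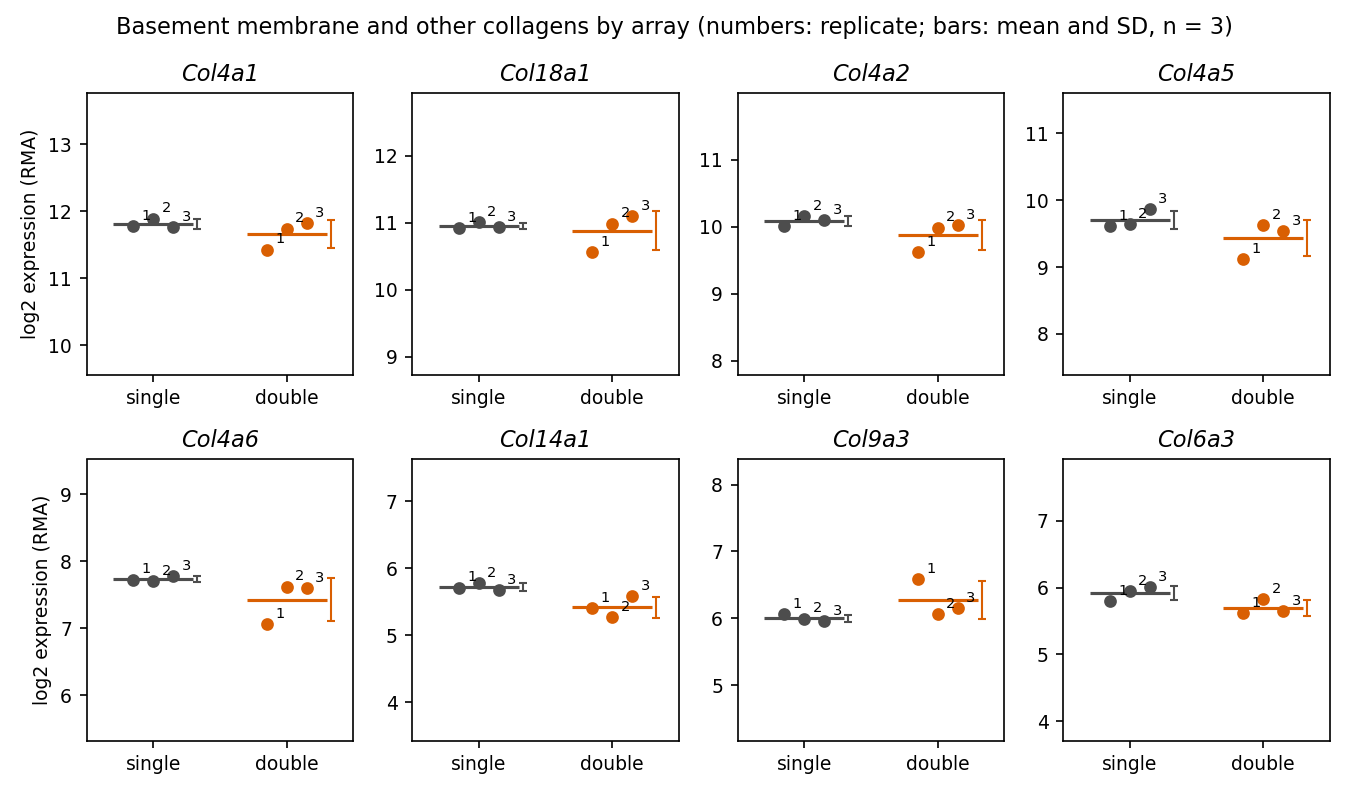
Log2 values (y axis) of 5 basement membrane collagens and of Col14a1, Col9a3 and Col6a3 in each array, with replicate numbers on the dots and bars for the mean and SD of 3 arrays a group; every panel spans the same log2 range. The panels are nearly flat at this scale, with the double knockout of Col4a6 and Col14a1 wholly below the single knockout and that of Col9a3 wholly above.

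The probe sets of a gene were compared where it had several. Of the 42 genes, 15 had 1 probe set and 27 had several. In 22 of the 27 the 2 brightest probe sets had differences of the same sign, and the gap between them had a median of 0.049 and reached 0.38. Where the second brightest also lay above the median gene mean, 9 of 10 had the same sign and the largest gap was 0.11. The probe set signal also set what could be seen, since 24 of 42 members lay below the median gene mean of 7.10. Restricted to members above it, 7 of 7 fibrillar collagens were lower with a median of -0.40, or 6 of 7 with -0.13 without double knockout replicate 1. Of the basement membrane collagens above it, 5 of 5 were lower with a median of -0.21, or 4 of 5 with -0.083 without that array. Of the others above it, 5 of 6 were lower with a median of -0.066, or 3 of 6 with 0.012 without it. Among all genes above the median gene mean, 56.8% were lower, or 52.0% without that array.

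Genes that make, trim, bind or break down collagen were listed beside the collagens, and 60 of the 65 listed were measured. None of the 60 passed the test in limma at an adjusted p of 0.05, and the lowest adjusted p was 0.872. Of the 60, 48 had a difference below 0 with a median of -0.093, or 39 with a median of -0.043 without double knockout replicate 1, where 53.8% and 53.3% of all genes were lower. At an unadjusted p of 0.05, 2 of 60 were counted with all arrays, against 4.96% of all genes, and 4 of 60 without double knockout replicate 1, against 6.67%, so neither count stood above the background. The double knockout lay wholly below the single knockout in 7 of 60, against 6.60% of all genes. It lay wholly above in 0 of 60, against 4.85%.

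The intracellular hydroxylases and chaperones, which modify and fold the chains, had 16 of 18 members lower with a median of -0.075, or 12 of 18 with -0.041 without double knockout replicate 1. The lowest unadjusted p values belonged to P4ha3, a prolyl hydroxylase subunit, at -0.25 (SE 0.10), and Plod2, a lysyl hydroxylase, at -0.29 (SE 0.15), which came to -0.25 and -0.18 without that array. The collagen chaperone Serpinh1, named after its values were seen, differed by -0.076. The enzymes that trim and cross-link procollagen had 7 of 10 lower with a median of -0.10. Without double knockout replicate 1 the direction of their median turned, to 0.013 with 5 of 10 lower. Adamts3, a procollagen N-proteinase, read 7.23, 7.46 and 7.29 in the single knockout and 6.93, 6.96 and 7.22 in the double knockout. On this probe set it was wholly lower, with a difference of -0.29 (SE 0.10), or -0.24 without double knockout replicate 1. Averaged over its 2 probe sets, the Adamts3 difference was -0.15. Tll2, a tolloid-like proteinase, differed by -0.12.

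Collagen receptors had 5 of 7 members lower with a median of -0.045, or 5 of 7 with -0.044 without double knockout replicate 1. Ddr1, a receptor tyrosine kinase for collagen, differed by 0.13, or 0.20 without that array, and Itga2, an integrin subunit, by -0.16, or -0.044. Among basement membrane partners of type IV collagen 8 of 9 were lower with a median of -0.078, or 5 of 9 with -0.028 without double knockout replicate 1. The laminin chains Lama5 and Lamc1 differed by -0.12 (SE 0.05) and -0.13, or -0.096 and -0.073 without that array, and the Lama5 groups did not overlap. Of the genes of collagen breakdown 6 of 8 were lower with a median of -0.11, or 6 of 8 with -0.070 without it, including the proteinase inhibitor Timp2 at -0.11 and the dim collagenase Mmp13 at -0.17.

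The proteins that sit on fibrils had the lowest median of the 6 lists, -0.34 with 6 of 8 lower, and -0.18 without double knockout replicate 1. Postn, or periostin, a matrix protein that binds type I collagen, read 8.37, 8.84 and 9.13 in the single knockout and 7.50, 7.99 and 8.005 in the double knockout. All double knockout arrays lay below all single knockout arrays, and the difference of -0.95 (SE 0.22) was -0.78 (SE 0.20) without double knockout replicate 1. Tnc, or tenascin C, a glycoprotein of remodelling matrix, read 7.85, 8.22 and 8.21 in the single knockout and 5.79, 7.64 and 7.55 in the double knockout. Its groups did not overlap either, with a difference of -1.10 (SE 0.49), or -0.50 (SE 0.13) without double knockout replicate 1. Averaged over its 2 probe sets, the Tnc difference was -0.68. Named after their values were seen, the fibril-binding proteoglycans gave -1.02 for Lum, -0.54 for Bgn and 0.15 for Dcn, and -0.30, -0.21 and 0.33 without double knockout replicate 1. Each of these had an adjusted p of 0.872 or higher in limma with all arrays.

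**Figure D5:**
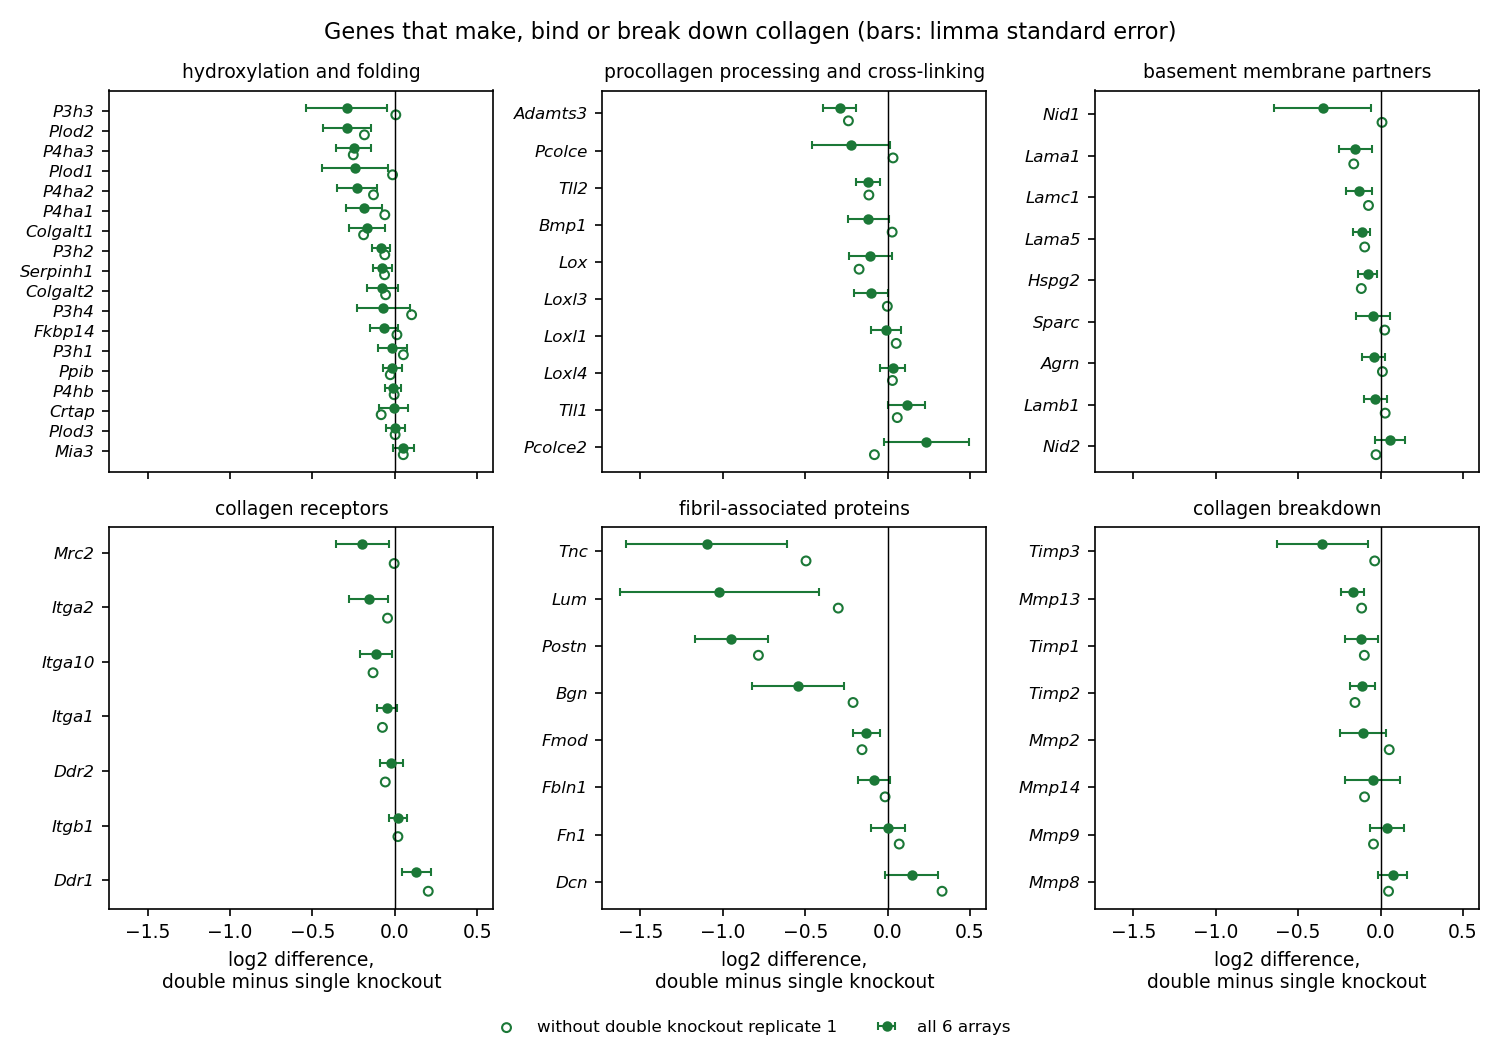
Double minus single knockout difference (log2, x axis) of the 60 measured genes of the collagen pathway by list, filled circles with limma standard errors over 3 arrays a group, and open circles without double knockout replicate 1. Most genes lie near 0, and Tnc, Lum and Postn lie farthest to the left at -1.10, -1.02 and -0.95.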

How the data were processed

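Biotin-labelled total RNA of 6 whole-embryo samples was measured on Affymetrix arrays, per the labels' protocols. The authors deposited log2 values made with RMA, per the submitters' processing notes, with no version named there. Values ranged from 2.64 to 15.17, and array medians from 5.79 to 5.82. RMA normalizes between arrays and so measures change relative to the other genes. Precision is limited by having 3 arrays a group.

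Of 45101 probe sets, 64 were controls, 34945 had 1 symbol in the platform annotation, 932 had several and 9160 had none listed. Per gene, the probe set with the highest mean over 6 arrays was kept, giving 18193 genes. Groups were compared with limma 3.58.1 in R 4.3.3 (lmFit and eBayes, no covariates), with Benjamini-Hochberg adjustment over all 18193 genes and a threshold of 0.05, after the fit was tested on simulated data. Differences are double minus single knockout on the log2 scale. SE is the standard error from limma's moderated variance.

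The collagen classes, pathway lists and marker lists were chosen with earlier results of these data known. Collagens named with values were, per class, the 5 with the highest mean and the 4 with the lowest unadjusted p, and any past the threshold. Col1a1 was added outside this rule, and further collagens, such as Col27a1, were given as values among their class. In each pathway list the 2 with the lowest unadjusted p were named, and further genes only where said or as values among their class. Alternatives tried were a replicate block, an intensity trend with robust moderation, a brightness filter, mean or all probe sets, array weights, median centring, a further quantile normalization, a threshold of 0.1, and each array left out. Promoter letters were searched with Python 3.11.15.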

Additional observations from a re-analysis of the deposited data

How the results depend on the processing

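No collagen passed the threshold under any of the 15 alternatives run, the lowest adjusted p being 0.693 to 0.99992 across them. The only gene called among all genes, Fzd2, lost its call with the mean of all probe sets of a gene, where 0 genes were called by limma and 881 had an unadjusted p under 0.05. Leaving out each array gave 0 to 1 called genes, with 0 without single knockout replicate 1, 2 or 3 or double knockout replicate 3, where 802, 573, 640 and 1024 genes had an unadjusted p under 0.05. These fits hold fewer arrays. Fzd2 stayed lower throughout. Same-numbered arrays of the 2 groups had deviation correlations of 0.094, -0.037 and -0.13. With 3 arrays a group these values cannot settle whether the arrays were paired, and the labels do not say which litters were used. With the replicate block, 1 gene and 0 collagens were called, and 1011 against 902 genes had an unadjusted p under 0.05.

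The medians of the fibrillar and basement membrane collagens stayed below 0 under all alternatives, ranging over single left-out arrays from -0.48 to -0.076 and from -0.20 to -0.074. With array weights, which gave double knockout replicate 1 a weight of 0.281 against 0.969 to 1.60 for the others, the fibrillar median was -0.092. The median of the other collagens was -0.066 with genes below the median brightness left out, where 6 members were left, and ranged from -0.072 to 0.0039 over left-out arrays. Of the 20 collagens named by rule, 16 kept their sign under every alternative and 4 did not. Col6a2 came to 0.012 with a second quantile normalization, 0.00078 with median centring and 0.066 with array weights. With array weights Col2a1 came to 0.045, Col18a1 to 0.041 and Col23a1 to 0.030. Over left-out arrays they ranged from -0.083 to 0.087 (Col6a2), -0.62 to 0.22 (Col2a1), -0.18 to 0.089 (Col18a1) and -0.13 to 0.061 (Col23a1). No alternative moved the median of all genes by more than 0.0069.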

Other observations

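Several collagen genes neighbour each other in the RefSeq annotation (GRCm38.p6), and their values were read side by side. Col4a1 and Col4a2 adjoin, with differences of -0.15 and -0.21. Leaving out double knockout replicate 1 gave -0.027 and -0.083. Col4a5 and Col4a6 adjoin likewise, and differed by -0.28 and -0.31, or -0.12 and -0.13 without that array. The dim pair Col4a3 and Col4a4 differed by 0.046 and -0.015, or -0.065 and -0.019 without that array. Col3a1 and Col5a2, which are also neighbours, differed by -1.76 and -0.45, or -0.87 and -0.24 without that array. Col6a1 and Col6a2, which lie farther apart, differed by -0.082 and -0.0019, or 0.064 and 0.087 without that array. These pairs were picked by hand among neighbours and not by a rule of distance, and the likeness of their members was not tested. Other collagens near each other were not paired. Among them, Col6a4 and Col6a5 differed by -0.011 and 0.010, or 0.026 and 0.023 without that array. Col9a1 and Col19a1 differed by -0.15 and 0.053, or -0.060 and -0.081 without it.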
